A study of Homo sapiens with 4 samples.

Results

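H/ACA box small nucleolar RNAs were taken as the snoRNA entries of the deposited gene tables whose symbol starts with SNORA, selected on their counts, at least 10 in any of the 4 libraries. Of 182 such entries, 121 met the minimum, 61 did not, and 43 of those 61 had 0 counts in every library. The gene tables held 46416 entries, 541 of them snoRNAs, and 8865 entries of all kinds met the same minimum. The minimum used the counts of all 4 libraries, so 5 genes that reached it in 1 library only were bound to be uneven, and 106 reached it in all 4. The genes just outside were SNORA50B, with 9, 8, 1 and 6 counts, and SNORA80C, with 4, 9, 4 and 6, in untreated resistant, encorafenib-treated resistant, untreated sensitive and encorafenib-treated sensitive cells. The genes just inside were SNORA11G, with 1, 2, 5 and 10 counts, and SNORA15, with 0, 10, 10 and 0. This order of libraries is kept wherever 4 values are listed.

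The cells were A375, a human malignant melanoma line labelled BRAF-mutated in all 4 groups. Total RNA of each group was made into a library with the SMARTer smRNA-Seq kit, a kit for small RNA. Counts of protein-coding genes, hosts and markers come from these same libraries and may not measure whole mRNA. A375-R is the line labelled resistant to encorafenib, a second-generation inhibitor of the BRAF kinase, and A375-S the sensitive line. Both lines were grown without drug, or with encorafenib at 10 nM during 48 h. The labels do not say how the resistant line was derived or whether it is a clone. There was 1 library per group, so no difference here has a replicate check and no p-value is given. The 95% intervals below are exact binomial intervals that cover counting error only, and PCR copies of a molecule may be counted more than once. Of 8 melanocyte genes 6 were counted and 4 met the minimum, with sums of 163, 426, 241 and 513 counts. The 4 did not move alike. DCT had 1, 145, 0 and 332 counts, MITF 19, 59, 31 and 45, S100B 49, 134, 53 and 63, and SOX10 94, 86, 157 and 73. PMEL and TYRP1 each had 0, 1, 0 and 0, and MLANA and TYR were at 0 in every library. Sums over 4 immune genes were 35, 38, 7 and 17 counts, higher in both resistant libraries than in both sensitive ones. They came from CD68, with 22, 35, 6 and 17, and LYZ, with 13, 2, 1 and 0. PTPRC had 0, 1, 0 and 0, and CD3E was at 0. The summed fibroblast genes stayed at 6 counts or below and the epithelial genes at 1 or 0. In bulk RNA, fewer cells of a type and less RNA per cell cannot be told apart.

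H/ACA snoRNAs fold into paired hairpins joined by a hinge that carries the H box, and end in a tail with the ACA triplet close to the 3′ end. Each sits in a particle with dyskerin, NOP10, NHP2 and GAR1, and its hairpin pockets pair with ribosomal RNA and select the uridines that dyskerin turns into pseudouridine. Most human H/ACA snoRNAs are cut from introns of host genes, many of which encode ribosomal proteins or translation factors or are non-coding RNAs with no other known product. SNORA73A and SNORA73B, also called U17 or E1, take part in the cleavage of the 18S rRNA precursor.

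The transcript sequences fitted the class label. Genes were looked up in GENCODE release 29, an annotation of GRCh38, by RefSeq accession and, failing that, by Entrez ID or symbol. A sequence was found for 114 of the 121 genes, and 7 genes were not matched (SNORA87, SNORA109, SNORA101B, SNORA11G, SNORA63B, SNORA63E and SNORA77B). Of the 114, 87 (76.3%) had ACA exactly 3 bases before the 3′ end and 108 (94.7%) had the 6-letter motif ANANNA, read on the transcript strand only, within 35 to 65% of their length. Both features were present in 84 (73.7%). Of 162 C/D box snoRNAs with a sequence, the other main class, the same searches found 3 (1.85%), 60 (37.0%) and 0. The median length was 134 bases, from 121 to 249, against 84 for the C/D genes. A motif match is a description of the letters and not a mapped site.

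The sequences of SNORA73A and SNORA73B are shown first because these copies, 93.2% identical over 206 bases, had unequal drug ratios in resistant cells. SNORA23 and SNORA50C follow as the members that differed most upward between the lines or libraries, and then SNORA58B, SNORA36B, SNORA41 and SNORA56, which were lower in resistant cells. Letters are DNA, 5′ to 3′, from GENCODE release 29. Capitals mark the ANANNA match nearest the middle and an ACA 3 bases before the end.
SNORA73A: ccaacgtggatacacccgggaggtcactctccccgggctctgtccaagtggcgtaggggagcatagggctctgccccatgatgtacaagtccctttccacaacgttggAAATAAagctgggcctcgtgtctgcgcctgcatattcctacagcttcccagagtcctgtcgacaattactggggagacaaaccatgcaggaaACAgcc
SNORA73B: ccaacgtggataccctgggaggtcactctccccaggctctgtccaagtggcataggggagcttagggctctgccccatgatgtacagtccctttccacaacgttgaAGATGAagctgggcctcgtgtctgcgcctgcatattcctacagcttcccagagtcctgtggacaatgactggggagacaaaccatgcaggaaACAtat
SNORA23: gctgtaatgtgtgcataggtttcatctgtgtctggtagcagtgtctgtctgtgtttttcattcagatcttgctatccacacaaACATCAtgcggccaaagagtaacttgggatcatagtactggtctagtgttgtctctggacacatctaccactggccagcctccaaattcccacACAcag
SNORA50C: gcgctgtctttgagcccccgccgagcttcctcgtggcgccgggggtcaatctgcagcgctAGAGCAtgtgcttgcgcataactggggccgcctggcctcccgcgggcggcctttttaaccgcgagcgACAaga
SNORA58B: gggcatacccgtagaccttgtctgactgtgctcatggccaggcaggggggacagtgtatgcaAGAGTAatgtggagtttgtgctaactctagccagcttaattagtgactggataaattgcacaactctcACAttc
SNORA36B: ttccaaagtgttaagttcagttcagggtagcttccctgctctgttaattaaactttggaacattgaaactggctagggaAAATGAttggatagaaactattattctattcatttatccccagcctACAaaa
SNORA41: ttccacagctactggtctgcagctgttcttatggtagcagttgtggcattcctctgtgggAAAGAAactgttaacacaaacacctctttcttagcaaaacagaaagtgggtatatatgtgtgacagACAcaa
SNORA56: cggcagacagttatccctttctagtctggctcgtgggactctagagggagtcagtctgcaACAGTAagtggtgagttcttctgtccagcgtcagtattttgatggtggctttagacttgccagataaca
SNORA56 has no capital ACA because its annotated end falls directly on an ACA, without the 3 further bases. SNORA73A and SNORA73B lie on the plus strand of chromosome 1, SNORA23 on the plus strand of chromosome 11, SNORA50C on the plus strand of chromosome 17, SNORA58B on the plus strand and SNORA36B on the minus strand of chromosome 1, SNORA41 on the plus strand of chromosome 2, and SNORA56 on the plus strand of chromosome X.

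How far the H/ACA class differed between libraries depended on the total it was set against. Of all gene-table counts, most of them ribosomal RNA, the H/ACA share was 0.541% (0.538 to 0.544) in untreated resistant cells, 0.609% (0.606 to 0.612) in treated resistant cells, 0.610% (0.608 to 0.613) in untreated sensitive cells and 0.595% (0.592 to 0.598) in treated sensitive cells. These shares came from 124695, 124900, 205493 and 151899 H/ACA counts among 23029101, 20507667, 33664470 and 25539835 counts in all, of which 92.4, 88.7, 93.8 and 93.8% were ribosomal RNA. Of the counts left without ribosomal RNA the H/ACA share was 7.17, 5.37, 9.87 and 9.64%, lower in both resistant libraries. Against the C/D class the libraries separated by line, though with 1 library per group line and library preparation cannot be told apart. The H/ACA genes are longer, at a median of 134 bases against 84, and the part of length was not tested. There were 12.9 and 8.997 H/ACA counts per 100 C/D counts in resistant cells, against 21.5 and 17.7 in sensitive cells, and the lines did not overlap. The ratio of resistant to sensitive was 0.601 without drug and 0.508 with it. How this divides between the classes also turned on the total. Per gene-table count, C/D counts were 1.48-fold and 2.02-fold higher in resistant cells without and with drug, and the H/ACA ratios were 0.887 and 1.02. Per count without ribosomal RNA, the C/D ratios were 1.21 and 1.10 and the H/ACA ratios 0.727 and 0.557. Per protein-coding count the C/D ratios were 1.34 and 1.14 and the H/ACA ratios 0.808 and 0.578. Per count of a protein-coding gene, H/ACA counts were 0.381, 0.407, 0.472 and 0.704, highest in treated sensitive cells, where the library held 215894 protein-coding counts, the fewest of the 4. Because the class total moved differently against each of these totals, the members are compared below as counts per 10000 H/ACA counts, a scale on which a rise of some members lowers the others.

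**Figure D1:**
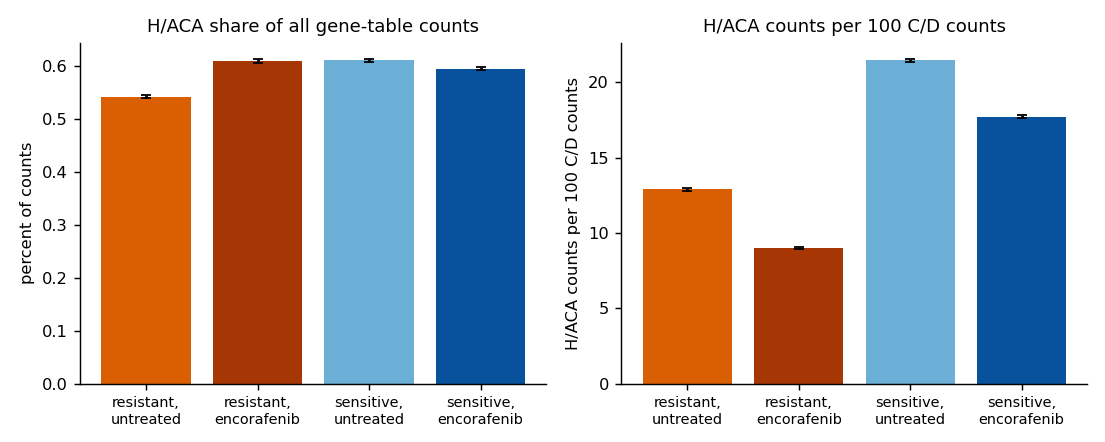
The H/ACA share of all gene-table counts (left, percent) and H/ACA counts per 100 C/D counts (right), each by library, with 95% counting intervals as whiskers. The share of all counts, ribosomal RNA included, ran from 0.541 to 0.610%, and the count per 100 C/D counts was 12.9 and 8.997 in resistant against 21.5 and 17.7 in sensitive cells.

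A few genes made up most of the class in every library. SNORA71D, a member of the U71 family in introns of the non-coding host SNHG17 on chromosome 20, had 1042, 947, 1372 and 1120 counts per 10000 H/ACA counts. SNORA7A, within RPL32, had 936, 903, 796 and 931, and SNORA67, within the translation initiation factor gene EIF4A1, had 1088, 788, 803 and 718. These 3 genes took 30.7, 26.4, 29.7 and 27.7% of the H/ACA counts. Next by mean share came SNORA4 in EIF4A2, SNORA62 in RPSA, SNORA73B in SNHG3, SNORA71A in SNHG17, SNORA10 in RPS2, SNORA6 in RPSA and SNORA73A in SNHG3, with means over the libraries from 461 down to 245 per 10000. The first 10 genes of each library took 53.9, 50.2, 56.4 and 52.0%. SNORA10, with 285, 283, 291 and 255, was among the steadiest. Per 100 bases of transcript the first 5 genes were the same. SNORA7A is 98.6% identical to SNORA7B, and the sources do not state how a read matching both was counted, so the level of each is uncertain.

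**Figure D2:**
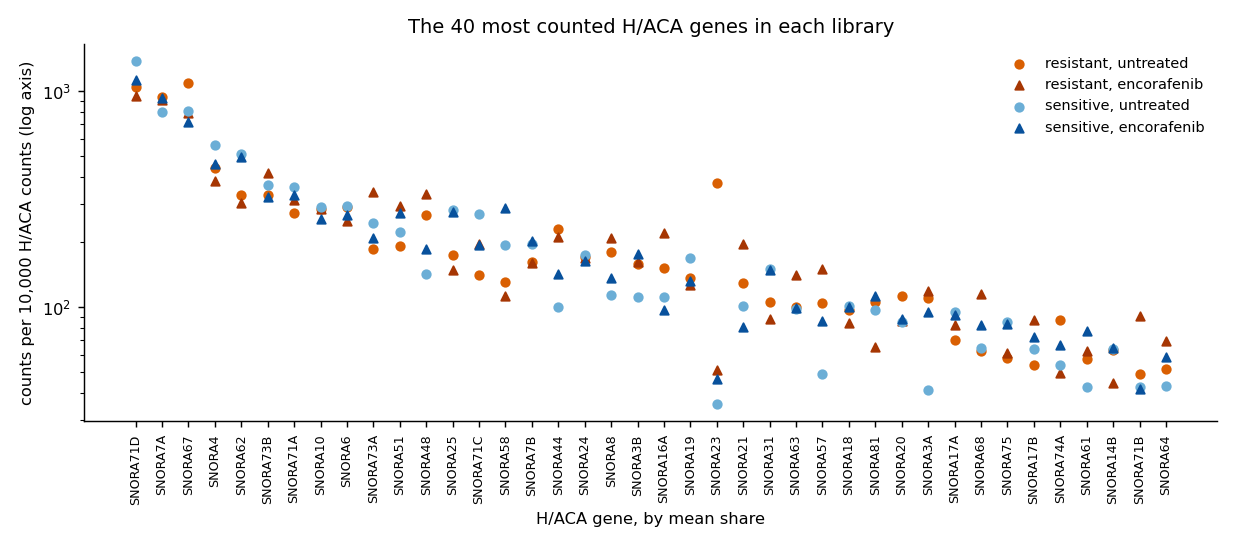
Counts per 10,000 H/ACA counts (log axis) of the 40 H/ACA genes with the highest mean share, ordered by that mean, 1 point per library (circles untreated, triangles encorafenib, orange shades resistant, blue shades sensitive). Points of a gene lie close together for most genes, and SNORA23 in untreated resistant cells, at 376 against 35.4 to 51.2 elsewhere, stands above its neighbours.

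Most members varied little beside this range of levels. Among the 102 genes with at least 50 counts in some library, the highest share over the lowest was under 1.5 for 34 genes, 1.5 to 2 for 34, 2 to 3 for 21 and at least 3 for 13, with a median of 1.71. The 13 widest were SNORA36B, SNORA23, SNORA58B, SNORA50C, SNORA69, SNORA41, SNORA56, SNORA74D, SNORA77, SNORA11F, SNORA74B, SNORA36A and SNORA57. Over the 85 genes at 50 counts or more in all libraries, log2 levels were most alike between the sensitive libraries (Pearson r = 0.979, Spearman rho = 0.980) and between the resistant libraries (0.966 and 0.964). They were less alike across lines, at r = 0.931 without drug and 0.927 with it. These correlations are across genes of single libraries, which are not replicates. Treated and untreated sensitive cells lay within 1.5-fold of each other for 73 of the 85 genes and resistant cells for 71, against 59 and 57 between the lines.

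Between the untreated lines, SNORA23 stood far above the rest of the members in resistant cells, and a set of low to moderate members was lower there. A member was called higher or lower where its 95% interval bound nearest 0 lay beyond 2-fold. On this rule 11 of 121 members were called (9.09%), 5 higher (4.13%) and 6 lower (4.96%) in resistant cells. The share called was 25.8% of 194 C/D genes scaled to their own total, 13.4% higher and 12.4% lower. It was 4.03% of all 8865 entries scaled by TMM, 2.88% higher and 1.15% lower, many of them at low counts. These shares were not tested against each other. The median log2 ratio of resistant to sensitive was -0.05 over the members and -0.01 over all entries. Scaling to their own total tends to hold the members' median near 0, here and in the later comparisons. It therefore does not show how the class moved, and under TMM over all entries the members' median was -0.325. The interval lay above 0 for 34 members, below 0 for 39 and held 0 for 48. Scaled by TMM over all entries the split was 2 higher and 7 lower, by the protein-coding total it was 1 and 9, and by the median ratio of the H/ACA rows 8 and 4.

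SNORA23, in an intron of IPO7, which encodes a nuclear import receptor, had 4687, 640, 727 and 701 counts. Its share was 376 per 10000 in untreated resistant cells against 51.2, 35.4 and 46.1 in the other libraries, so a single library stood apart. The log2 ratio of resistant to sensitive was 3.41 (3.30 to 3.52) without drug, a 10.6-fold difference, and 0.15 (-0.01 to 0.31) with drug. Counts of the host IPO7 were 116, 67, 159 and 56, and its log2 ratio between the untreated lines was -0.01 (-0.37 to 0.35). The host was scaled by TMM over all entries, a scale that moved the members' median by -0.27 in this comparison. The snoRNA thus differed where counts of the host did not show a difference, at a host depth that leaves a wide interval. SNORA23 shares its number with no other member.

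The other members called higher in untreated resistant cells were smaller differences. SNORA3A, in the ribosomal protein gene RPL27A, had 110, 119, 41.4 and 94.2 per 10000 and a log2 ratio of 1.41 (1.28 to 1.53). SNORA31B, in TPT1, had 52.8, 51.3, 19.4 and 37.1 and a ratio of 1.45 (1.26 to 1.63). SNORA11F, with 8.66, 8.97, 2.63 and 6.19, had a ratio of 1.71 (1.24 to 2.22). In these 3 genes untreated sensitive cells were the lowest library and the other 3 lay closer together. SNORA44, in the non-coding host SNHG12, had 228, 211, 100 and 141, high in both resistant libraries, with a ratio of 1.19 (1.11 to 1.27). SNORA44, SNORA31B and SNORA11F were no longer called under TMM over all entries, and SNORA3A and these 3 were not under the protein-coding total.

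The members called lower in untreated resistant cells included copies of shared families. SNORA41, in EEF1B2, a subunit of the translation elongation factor 1 complex, had 35, 57, 381 and 261 counts, or 2.81, 4.56, 18.5 and 17.2 per 10000. Its log2 ratio was -2.71 (-3.27 to -2.22). SNORA58B, in UBAP2L, had 126, 113, 1053 and 1442 counts, or 10.1, 9.05, 51.2 and 94.9 per 10000, and a ratio of -2.34 (-2.62 to -2.07). Both resistant libraries lay below both sensitive ones in each gene. SNORA36B, in an intron of RAB3GAP2, had 11, 15, 113 and 211 counts and a ratio of -2.58 (-3.68 to -1.75). SNORA56 had 33, 49, 251 and 118 counts and a ratio of -2.19 (-2.78 to -1.68), and SNORA36A 132, 97, 529 and 346 and -1.28 (-1.57 to -1.004). Both of these last lie in DKC1, the gene of dyskerin itself. SNORA69, in RPL39, had 30, 75, 150 and 284 counts and a ratio of -1.58 (-2.22 to -1.03), near the 2-fold limit. SNORA69 and SNORA36A were no longer called when scaled by the median ratio of the H/ACA rows. The same held when the class total left out SNORA23, an alternative chosen after seeing the data. SNORA36A was also not called under TMM of the H/ACA rows.

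**Figure D3:**
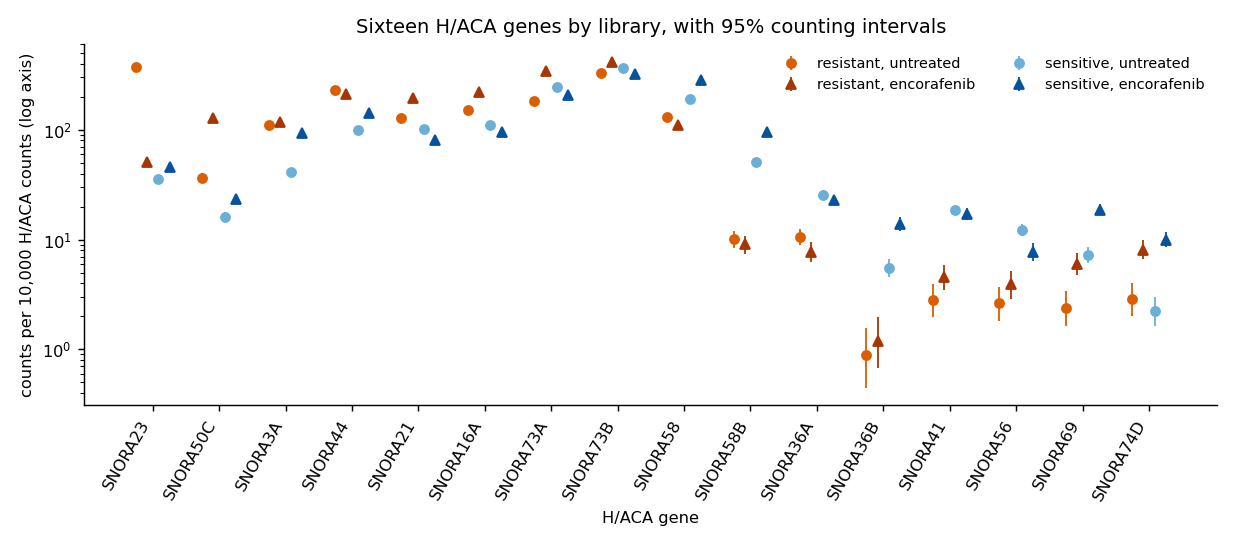
Counts per 10,000 H/ACA counts (log axis) of 16 H/ACA genes by library, with 95% exact binomial counting intervals, circles for untreated and triangles for encorafenib, orange shades for resistant and blue shades for sensitive cells. SNORA23 is high in untreated resistant cells alone (376) and SNORA50C highest in treated resistant cells (127), while both resistant points lie below both sensitive points for SNORA58B, SNORA36A, SNORA36B, SNORA41, SNORA56 and SNORA69.

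The comparison of the lines was repeated under encorafenib with different libraries, and the low set was again low. Again 11 of 121 members (9.09%) were called, 4 higher (3.31%) and 7 lower (5.79%). Of C/D genes 18.6% were called, 13.4% higher and 5.15% lower, and of all entries 3.95%, 2.71% higher and 1.24% lower. The median log2 ratio was -0.01 over the members and 0.04 over all entries. Of the lower calls 5 were shared, SNORA36A, SNORA36B, SNORA41, SNORA58B and SNORA69. That is 83.3% of the 6 without drug and 71.4% of the 7 with it. The calls of SNORA36A and SNORA69 without drug depended on the scaling. No higher call was shared, but SNORA50C was called higher in both when scaled by the median ratio of the H/ACA rows or without SNORA23 in the total. Both intervals lay above 0 for 21 members and below 0 for 24, and the sign was the same for 79 of 121. Over the 85 well counted genes the line ratios without and with drug correlated at r = 0.579 and rho = 0.578, from libraries that share cells of the same origin and preparation. Under TMM over all entries the split was 1 higher and 29 lower, because that scaling moved the median of the members to -0.78.

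SNORA36B and SNORA58B lay furthest below the sensitive line among the treated cells, at -3.49 (-4.39 to -2.78) and -3.39 (-3.68 to -3.11). SNORA41 had -1.90 (-2.35 to -1.49), SNORA69 had -1.63 (-2.03 to -1.27) and SNORA36A had -1.55 (-1.89 to -1.22). SNORA58, in an intron of MRPL3 and 86.9% identical to SNORA58B, had 1627, 1396, 3957 and 4353 counts. Its ratio was -0.56 (-0.65 to -0.48) without drug and -1.36 (-1.45 to -1.27) with it, the same direction as its copy at a much higher level. SNORA55, in an intron of PABPC4, was also called, with 334, 277, 886 and 906 counts and a ratio of -1.43 (-1.63 to -1.23). SNORA36C, 97.0% identical to SNORA36A, was near the floor with 13, 8, 15 and 11 counts and intervals that held 0. SNORA56 had -0.98 (-1.497 to -0.49) and was not called with drug.

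Among members with at least 50 counts, SNORA50C was the one most above the sensitive line under drug. It lies within an annotated exon of the non-coding host SNHG25 and had 457, 1587, 329 and 358 counts, or 36.6, 127, 16.01 and 23.6 per 10000. Its log2 ratio of resistant to sensitive was 2.43 (2.26 to 2.60) with drug and 1.19 (0.99 to 1.40) without, just short of the call. Resistant libraries were both above sensitive ones. SNORA21, in RPL23, had 129, 196, 101 and 80.5 and a ratio of 1.28 (1.18 to 1.38) with drug. SNORA16A, in SNHG12, had 152, 219, 111 and 96.4 and a ratio of 1.18 (1.09 to 1.28). SNORA71B, in SNHG17, had 49.0, 91.0, 42.5 and 41.7, with 1.12 (0.98 to 1.27), and was not called. SNORA21 and SNORA16A were not called under TMM over all entries, and SNORA50C kept its call at 1.65. SNORA48, within EIF4A1, kept nearly the same ratio in both comparisons, 0.90 (0.83 to 0.97) and 0.85 (0.78 to 0.92), with 266, 335, 142 and 186 per 10000. SNORA15 was also called, but from 10 counts in each of 2 libraries and 0 in the others, where a count of 0 allows up to 0.241 per 10000 in untreated resistant and 0.198 in treated sensitive cells. No fold is given for it, since it is 97.8% identical to SNORA15B-1 and stands at the minimum.

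**Figure D4:**
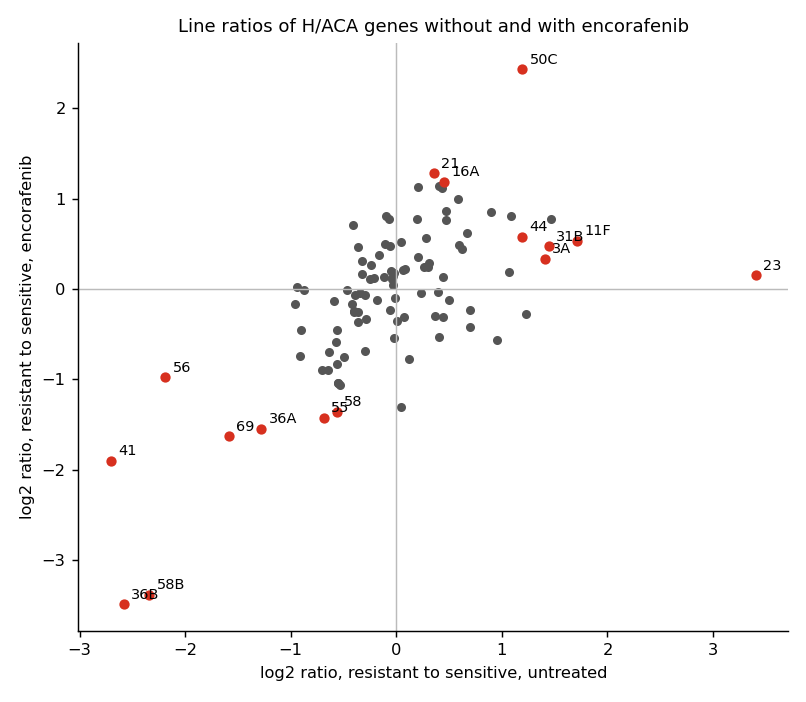
Log2 ratios of resistant to sensitive cells for the 102 H/ACA genes with at least 50 counts in some library, without drug (x axis) and with encorafenib (y axis), each gene a point. Red points, labelled with the number after SNORA, were called in at least 1 comparison: 36B, 58B, 41, 69 and 36A lie low on both axes, 23 is high without drug only (3.41 against 0.15) and 50C is highest with drug (2.43).

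GC content went with the line ratios. Across 99 members with a sequence and at least 50 counts, GC content correlated with the log2 ratio of resistant to sensitive at r = 0.321 and rho = 0.347 without drug and at 0.394 and 0.374 with it. These are descriptions across genes that share libraries. SNORA50C has 66.9% GC and SNORA36B 35.9%, against a median of 48.5% over the members, while SNORA58B, at 48.5%, lies at the median. Transcript length did not move in the same way (r = 0.118 and 0.0314). For the drug comparisons the GC correlation was 0.116 in sensitive and 0.217 in resistant cells. The part of base composition, of the CD68 and LYZ counts and of the C/D share in the line ratios was not tested.

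Encorafenib in sensitive cells moved few members past the limit. Of 121, 5 (4.13%) were called, all higher, and no member (0%) was called lower. Of C/D genes 5.15% were called, likewise all higher, and of all entries 6.06%, 3.55% higher and 2.5% lower. The members were scaled to the H/ACA total and all entries by TMM, so these shares are not on the same scale. The median log2 ratio of encorafenib to untreated was 0.04 over the members and 0.01 over all entries. SNORA74D, in the non-coding host SNHG4, had 36, 101, 46 and 152 counts and a ratio of 2.15 (1.68 to 2.67). SNORA3A had 1.19 (1.06 to 1.31), SNORA69 had 1.35 (1.07 to 1.65), and SNORA36B had 1.33 (1.00 to 1.68). SNORA77, in an intron of ATP2B4, had 46, 76, 36 and 81 counts and a ratio of 1.59 (1.02 to 2.21). Under TMM or the median ratio of the H/ACA rows only SNORA74D among these 5 was still called, and under TMM over all entries 14 members were called, all higher, as that scaling moved the members' median to 0.59. Among members with lower values, SNORA71C had 270 per 10000 untreated and 193 treated, a ratio of -0.49 (-0.55 to -0.42), and SNORA40 had 26.0 and 16.9, a ratio of -0.62 (-0.84 to -0.40). The most abundant gene, SNORA71D, had -0.29 (-0.32 to -0.26).

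In resistant cells SNORA23 was lower and SNORA50C higher with encorafenib. Of 121, 3 (2.48%) were called, SNORA50C and SNORA15 higher (1.65%) and SNORA23 lower (0.826%). Of C/D genes 16.5% were called, 15.5% higher and 1.03% lower, and of all entries 4.95%, 3.36% higher and 1.59% lower. The median was 0.17 over the members and 0.04 over all entries. SNORA23 had 376 per 10000 untreated and 51.2 treated, a log2 ratio of -2.87 (-2.996 to -2.76), near the 35.4 and 46.1 of the sensitive libraries. SNORA50C had 36.6 untreated and 127 treated, a ratio of 1.79 (1.64 to 1.95). Both calls held under every alternative scaling of the 121 members. SNORA74D had 1.47 (0.92 to 2.08) and SNORA69 1.31 (0.69 to 1.98), not called but in the direction seen in sensitive cells. SNORA71B had 0.89 (0.75 to 1.04), also not called. Lower values that were not called included SNORA74A, in SNHG4, at -0.81 (-0.95 to -0.66), SNORA81, in EIF4A2, at -0.68 (-0.81 to -0.55), and SNORA67 at -0.47 (-0.50 to -0.43).

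Across the members the responses of the lines did not run in parallel. No call was shared, although SNORA74D was called higher in both lines when scaled to the gene-table total (2.11 in sensitive, 1.64 in resistant cells) or to the protein-coding total (2.73 and 1.57). In all, 64 of 121 members had the same sign, and the correlation over the 85 well counted genes was r = -0.0731 and rho = -0.0968. Both intervals lay above 0 for 14 members, among them SNORA50C, SNORA69, SNORA74D, SNORA77, SNORA57, SNORA48 and SNORA3A. Both lay below 0 for 7, SNORA4, SNORA6, SNORA19, SNORA62, SNORA67, SNORA71D and SNORA87. The difference of the log2 responses, resistant minus sensitive, was past 2-fold for 3 of 121 members (2.48%), 2 higher (1.65%) and 1 lower (0.826%). It was past 2-fold for 16.5% of C/D genes, 10.3% higher and 6.19% lower, and for 2.22% of all entries, 1.04% higher and 1.18% lower. SNORA23 had a difference of -3.26 (-3.45 to -3.07), from 0.38 (0.23 to 0.54) in sensitive and -2.87 in resistant cells. SNORA15 was the member resting on 10 counts.

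SNORA73A was the remaining one. It had 2305, 4258, 5045 and 3170 counts, or 185, 341, 246 and 209 per 10000, lowest in untreated and highest in treated resistant cells. Its log2 response was 0.88 (0.81 to 0.96) in resistant and -0.23 (-0.30 to -0.17) in sensitive cells, a difference of 1.12 (1.02 to 1.21). The call was lost when SNORA23 was left out of the class total, at 1.07. Under TMM over all entries, at 0.62, and under the protein-coding total it was also lost, with the same direction. TMM over all entries and the protein-coding total raised the members' ratios in sensitive cells by 0.55 and 0.58, so on those scales SNORA73A rose in both lines. Its copy SNORA73B had 329, 418, 368 and 323 per 10000, and responses of 0.35 (0.29 to 0.41) and -0.19 (-0.24 to -0.13), a difference of 0.53 (0.45 to 0.61). The direction was the same in both copies, and the intervals of the differences did not overlap. The host SNHG3 had 9, 13, 29 and 4 counts, too few to compare. Reads that match both copies limit the split between them, but the summed pair, 6404, 9477, 12599 and 8077 counts, made up 5.14, 7.59, 6.13 and 5.32% of the class, again highest in treated resistant cells.

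**Figure D5:**
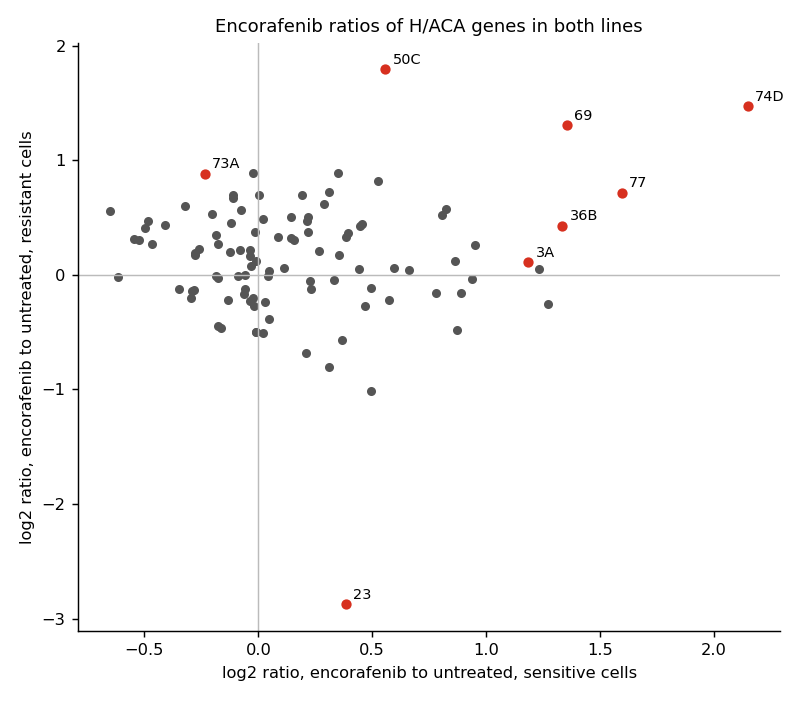
Log2 ratios of encorafenib to untreated for the 102 H/ACA genes with at least 50 counts in some library, in sensitive (x axis) and resistant cells (y axis). Red points, labelled with the number after SNORA, were called in at least 1 of the drug comparisons, or are SNORA73A: 23 lies far below 0 in resistant cells (-2.87), 50C high there (1.79), and 74D high in both (2.15 and 1.47).

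The members lay in 82 host genes on 22 chromosomes. The snoRNAs of some shared hosts differed in their ratios, while those of other hosts lay on the same side of 0. Of 112 members with a host, 67 lay in introns, 38 within an annotated exon of some host transcript and 7 across an exon edge. By host, 60 members were in other protein-coding genes, 27 in non-coding RNAs, 17 in ribosomal protein genes and 8 in translation factor genes. The non-coding hosts carried 31.1, 35.8, 36.0 and 32.6% of the H/ACA counts, the ribosomal protein hosts 25.2, 25.8, 24.5 and 26.4%, and the translation factor hosts 21.4, 18.5, 18.9 and 17.3%. In each of these classes the lines overlapped. Within SNHG17 the log2 ratio of the untreated lines was -0.40 (-0.43 to -0.37) for SNORA71D and -0.94 (-1.02 to -0.86) for SNORA71C, but 0.21 (0.05 to 0.36) for SNORA71B. Within RPSA, a ribosomal protein gene, SNORA62 had -0.64 (-0.69 to -0.58) while SNORA6 had -0.01 (-0.07 to 0.05). On the same comparison both SNHG7 members lay below 0 (-0.42 and -0.24), and the SNHG12 members ran from 0.44 to 1.19.

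Member ratios showed little relation to host ratios. Host ratios were scaled by TMM over all entries and member ratios to the H/ACA total. Over 39 hosts with at least 50 counts, taking 1 member each, the member and host log2 ratios correlated at r = 0.0153 and -0.164 between lines. For the drug in sensitive and resistant cells r was 0.0207 and 0.126, a description across genes at low host depth. With members in introns only, from 16 hosts, r was 0.195, 0.0463, 0.00105 and 0.318 in the same order, and rho 0.0176, 0.179, -0.132 and 0.112. For SNORA41 the host EEF1B2 had 130, 91, 143 and 41 counts and a ratio of 0.31 (-0.04 to 0.66) between untreated lines, against -2.71 for the snoRNA. A C/D snoRNA of the same host, SNORD51, scaled to the C/D total, had 0.26 (0.05 to 0.46). For SNORA50C the host SNHG25 had 210, 227, 728 and 224 counts and a ratio of -1.34 (-1.58 to -1.12), opposite in sign to the snoRNA at 1.19. SNORA50C, like SNORA41 in EEF1B2, lies within an annotated exon of its host, where reads of host and snoRNA cannot be told apart. SNORD104, also in SNHG25, had -0.67 (-0.69 to -0.66) without drug and -0.76 (-0.77 to -0.74) with it, and a response of -0.19 (-0.21 to -0.17) in resistant cells where SNORA50C had 1.79. In SNHG12, SNORA44 with 1.19 and SNORD99 with 1.01 (0.95 to 1.06) were both higher in untreated resistant cells.

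At DKC1 the host and its snoRNAs were low together in resistant cells. DKC1 counts were 405, 310, 1495 and 853, and its ratios, scaled by TMM over all entries, were -1.44 (-1.60 to -1.28) without drug and -1.95 (-2.15 to -1.76) with it, both called lower. SNORA56 lies within an annotated exon of a DKC1 transcript and SNORA36A crosses an exon edge, and the reads of DKC1 and of these snoRNAs cannot be told apart where they overlap, so the DKC1 value is uncertain as a measure of its mRNA. Together SNORA36A and SNORA56 had 165, 146, 780 and 464 counts, fewer than DKC1. Dyskerin is the pseudouridine synthase of the H/ACA particle. The other core proteins were thinly counted: NOP10 had 25, 20, 25 and 19 counts, NHP2, which binds the hairpin's upper part, 80, 53, 82 and 22, and GAR1, which sits on dyskerin, 10, 8, 16 and 3.

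Of the 13 genes listed for the H/ACA particle, its assembly, its passage through the Cajal body and snoRNA maturation, 12 met the count minimum. DKC1 was the only one called in either line comparison, and none was called in a drug comparison or in the difference of responses. Their median log2 ratio was -0.13 without drug, 0.22 with drug, -0.55 for the drug in sensitive and -0.39 in resistant cells, against -0.01, 0.04, 0.01 and 0.04 over all entries. In the same order, intervals above and below 0 numbered 1 and 1, 2 and 2, 2 and 2, and 0 and 3. The rest held 0, many of them at low counts. NOLC1, the Nopp140 chaperone of snoRNPs, had 104, 42, 80 and 26 counts and a line ratio of 0.82 without drug, not called. RUVBL1 and RUVBL2, ATPases of the assembly complex, had 45, 40, 69 and 12 and 35, 25, 51 and 21 counts. PARN, which trims snoRNA tails, had 33, 32, 53 and 19.

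Copies of the same family were a limit on single values. Of the members 69 share a number with another member, and 52 remained when these and genes with identical counts were left out. SNORA59A and SNORA59B, and SNORA15B-1 and SNORA15B-2, are identical in sequence and had identical counts, so each pair is 1 measurement. Without copies 4 of 52 members were called between the untreated lines (SNORA23 higher, SNORA41, SNORA56 and SNORA69 lower) and 5 of 52 with drug (SNORA16A and SNORA21 higher, SNORA41, SNORA55 and SNORA69 lower). Within families, SNORA36A and SNORA36B, 87.9% identical, were both called lower in both line comparisons, and their intervals at -1.28 and -2.58 did not overlap. SNORA50A, only 58.8% identical to SNORA50C, had 72, 75, 172 and 192 counts and a ratio of -1.07 (-1.48 to -0.68) with drug, opposite to SNORA50C. SNORA74A and SNORA74D share the host SNHG4 and are 53.0% identical, and in resistant cells the first had -0.81 and the second 1.47 with drug.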

How the data were processed

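Gene tables held raw counts per gene, per the file headers, as the authors deposited them; per the submitters' processing notes, hg19 was the build. Which aligner, counter, annotation and strand setting were used, and how multiply matching reads were treated, is not stated. Total RNA was made into libraries with the SMARTer smRNA-Seq kit and run on a NextSeq 500, per the labels' protocols. The separate microRNA tables were not used. Depth ran from 20507667 to 33664470 counts.

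Members had at least 10 counts in a library. Counts were divided by the library's H/ACA total, log2 ratios used a prior of 0.5 counts, and intervals are exact conditional binomial at 95% (for the difference of responses, from the summed counting variances). A call needs the bound nearest 0 beyond 1 in log2. TMM factors came from edgeR 4.0.16 in R 4.3.3; the rest ran in Python 3.11.15 with scipy 1.17.1, checked on simulated data. Named genes are the 10 with highest mean share, SNORA73A and SNORA73B, and per comparison the 5 higher and 5 lower with the largest bound and at least 50 counts; a few others were named after their values were seen, where they were called, copies of a named gene, or in its host. The members and lists were chosen with earlier results of these data known. Hosts are the smallest gene on the same strand in GENCODE 29 that contains the snoRNA and is in the gene table, read-through names left out. Where there was none, the smallest containing protein-coding gene was taken, or else the smallest of any kind. No coordinates are given, since builds differ. Alternatives were other totals, minimums and priors and leaving out copies. A result that needs a withheld item is not reported here.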

Additional observations from a re-analysis of the deposited data

Results flagged for a closer look

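Scaled to the H/ACA total, the drug responses of SNORA23 and SNORA73A went opposite ways in the 2 lines. Each group had 1 library per group, and the difference was not tested across replicates. For SNORA23 the difference of the log2 ratios of encorafenib to untreated, resistant minus sensitive, was -3.26, and the untreated resistant library alone, with 376 per 10000 H/ACA counts, sets it. For SNORA73A the difference was 1.12, with the untreated resistant library lowest at 185 and the treated resistant library highest at 341 per 10000. Its response of -0.23 in sensitive cells held its sign only on some scales. TMM over all entries and the protein-coding total raised the members' ratios there by 0.55 and 0.58, so SNORA73A then rose in both lines.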

How the results depend on the processing

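No paired analysis was possible because each group had 1 library, and leaving out replicates was not possible for the same reason. Counts of called members kept within 1.5 times the main count except as follows, and the cause was not tested beyond what each setting does. Without copies, with 52 genes left, 4 of 11 were called between untreated lines, 5 between treated lines, and 1 each for the drug in sensitive cells, in resistant cells and for the difference. Under TMM over all entries 30 members were called between treated lines, 14 for the drug in sensitive cells and 15 for the difference, and under the protein-coding total 30, 15 and 14. These scalings moved the members' median by -0.27 and -0.31 between untreated lines, by -0.78 and -0.79 between treated lines and by 0.55 and 0.58 for the drug in sensitive cells, and of the difference by -0.50 and -0.48. The gene-table total moved the median by -0.17 between untreated lines, 0.17 for the drug in resistant cells and 0.21 for the difference, leaving out copies by -0.12 in both line comparisons, TMM of the H/ACA rows by -0.11 in sensitive cells, and a minimum of 1 count by 0.14 between treated lines. The gene-table total gave 3 calls in sensitive cells and 5 for the difference, and TMM and the median ratio of the H/ACA rows each gave 1 in sensitive cells. Without ribosomal RNA the H/ACA share was 7.17, 5.37, 9.87 and 9.64%, and without the 2 most abundant C/D genes there were 16.2, 10.4, 28.2 and 22.7 H/ACA counts per 100 C/D counts, lower in both resistant libraries on both scales. Of 521 values of named members over 11 settings, 424 stayed within the counting interval of the main value, 97 moved outside it and none of the called values reversed. Depth limits SNORA15 and other members below 50 counts, and SNORA36B in the resistant libraries.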
